A study of Rattus norvegicus with 98 samples.

Results

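H3K27ac in the solitary tract nucleus (Snt) was compared between fluoxetine-treated and vehicle rats, using the 4 peak lists labelled Sham-Snt and FT-Snt, replicates 1 and 2, of 98 samples in the series. Peak lists of 94 samples were analysed, and the 4 Snt lists are 2 per treatment. The FT group was 2-month-old male Long-Evans rats given fluoxetine at 18 mg/kg/day in the drinking water for 6 weeks, and the Sham group had plain water. The rats were otherwise untreated and had not been stressed. Each library came from micropunches of frozen brain that were pooled over several animals, so a replicate is a pool and p-values bear on the spread between pools. The question was whether chronic fluoxetine altered the set of acetylated elements of this nucleus.

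The solitary tract nucleus lies in the dorsal medulla of the hindbrain and receives visceral and taste afferents through the vagus and other cranial nerves. It projects to the locus coeruleus, the raphe, the hypothalamus and the amygdala, and itself receives serotonergic input. Fluoxetine is a selective serotonin reuptake inhibitor, which blocks the transporter that clears serotonin from the synapse. H3K27ac is acetylation of lysine on histone H3 and marks active promoters and enhancers. In whole tissue, a mark in fewer cells and a weaker mark per cell cannot be told apart.

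The Snt lists were most like those of Raphe. On the 19378 best-scoring peaks of each list, the length of the shortest list in the series, the mean Jaccard index (windows occupied in both lists over windows occupied in either) was 0.750 with Raphe, 0.727 with VTA and 0.683 with LH, against 0.550 with LC. For each of the 4 Snt libraries, the most similar library outside Snt was the library labelled Sham Raphe replicate 1, at 0.834 for Sham 1, 0.783 for Sham 2, 0.826 for FT 1 and 0.805 for FT 2. Those values lie within or next to the range among the Snt libraries themselves, which was 0.790 to 0.840. The share of changed windows active elsewhere, the number of regions per window and the median differences over regions are therefore also given without Raphe, a choice made after the data had been seen. The tissue label was not checked against marker genes, since an annotation of the build was not used here.

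The number of acetylated sites differed between treatments by less than between the Sham libraries. The lists held 49122 peaks in Sham 1, 43894 in Sham 2, 49740 in FT 1 and 48513 in FT 2, which gave means of 46508 ± 3697 in Sham and 49126.5 ± 867.6 in FT (SD, n = 2 pools each). Sham 1 lay between the FT libraries, and Sham 2 was the lowest. The log2 ratio of FT to Sham was 0.08, against 0.10 when the libraries were split by replicate number and 0.06 for the crossed split, which sets Sham 1 with FT 2 against Sham 2 with FT 1 (exact permutation test over the 3 splits, two-sided, p = 0.667, where 0.333 is the smallest possible). Without Sham 2 the ratio was 0.00013, and without Sham 1 it was 0.16. Peaks covered 83.8, 73.0, 85.1 and 84.6 Mb in the same order, a log2 ratio of 0.11 against 0.10 by replicate and 0.09 crossed (exact permutation test, two-sided, p = 0.333). Without Sham 2 this ratio was 0.02. Other regions held 19378 to 54505 peaks per list, and the Snt lists ranked between 19 and 55 of 94 by length. The sequencing depth is unknown, so a longer list cannot be told apart from a deeper library.

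Peak widths differed little between libraries. The median width was 1700 bp in Sham 1, Sham 2 and FT 1 and 1800 bp in FT 2. The mean width was 1706, 1664, 1711 and 1743 bp, highest in the FT libraries but with Sham 1 close to FT 1. The log2 ratio of mean width was 0.036 for treatment, 0.004 for the replicate split and 0.031 for the crossed split (exact permutation test, two-sided, p = 0.333). When each list was cut to its 43894 best peaks by maxScore (the highest value of the peak caller's filter within a peak), as many as the shortest of the 4 holds, the mean widths were 1812, 1664, 1831 and 1844 bp. The cut took 4619 to 5846 low-scoring peaks from the other lists and none from Sham 2, whose mean could not change. Between 36 and 53 peaks per library were wider than 5 kb.

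To ask which sites differed, occupancy was scored along the genome in 1 kb windows, each called occupied where at least 50% of it lay under peaks. A window was called higher in FT when both FT libraries and neither Sham library occupied it, and higher in Sham in the reverse case. On the full lists 103566 windows were occupied in at least 1 library, and 61694 of them (59.6%) in all 4. By this rule 3102 windows (3.00%) were higher in FT, while 950 (0.917%) were so in Sham. The replicate split separated 2887 windows towards replicate 1 and 1081 towards replicate 2, and the crossed split 2303 towards Sham 1 with FT 2 and 1035 towards Sham 2 with FT 1. The treatment split thus separated 4052 windows, the replicate split 3968 and the crossed split 3338. Relative to the mean of the other splits, the treatment split had a log2 ratio of 0.15. Its count was the largest (exact permutation test over the 3 splits, one-sided for a larger count, p = 0.333, the smallest possible). The crossed split, however, lay further below the others than the treatment split lay above them. With the replicate number as a block, which leaves only the crossed split for comparison, it was 0.28.

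Equal-size lists gave nearly the same picture. Of 98687 windows occupied in any library, 60293 (61.1%) were occupied in all 4, 2642 (2.68%) were higher in FT and 1084 (1.10%) were higher in Sham. The treatment split separated 3726 windows against 3539 by replicate and 3130 crossed. Its log2 ratio was 0.16 (exact permutation test, one-sided for a larger count, p = 0.333), and 0.25 with the replicate block. Here too the crossed split lay further from the others than the treatment split did. On full lists the ratio corresponds to a 1.11-fold larger count for treatment.

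Sham 2, the library that covered least, differed most from the other libraries. In every one of the 3 splits, the side without Sham 2 held more windows. Windows occupied in Sham 1, FT 1 and FT 2 but not in Sham 2 numbered 6518 on equal-size lists, the most of any pattern short of all 4 libraries. The other patterns of 3 libraries held 1512 to 1973 windows. Sham 2 occupied 72805 windows after the lists were cut to one number of peaks, against 79496, 80331 and 80793 in Sham 1, FT 1 and FT 2. When each list was instead cut to the same covered length, the share of changed windows that were higher in FT was 55.1% (1823 higher in FT, 1488 higher in Sham) rather than 70.9%. Among the 5000 best peaks of each list, however, the share was 68.1%. There Sham 2 occupied 12651 windows, against 12810, 12786 and 13082 in Sham 1, FT 1 and FT 2. With Sham 2 left out, 4615 windows were occupied in both FT libraries but not in Sham 1, and 5105 were occupied in Sham 1 but in neither FT library, which is the larger count. The sides are unequal there, since 1 library stands against 2, and 4021 of the 5105 windows were occupied in Sham 1 alone of the 4 libraries. With Sham 1 left out, the same counts against Sham 2 were 9160 and 4968. What set Sham 2 apart, and whether its coverage led to the excess of windows higher in FT, was not tested.

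**Figure D1:**
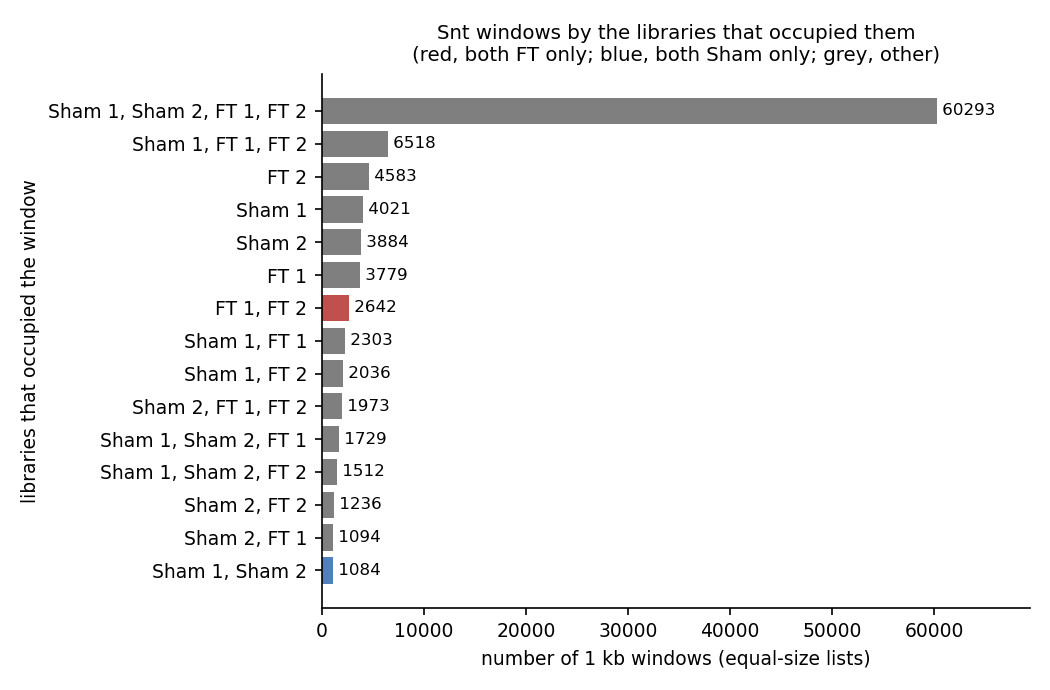
Number of 1 kb windows (x axis) for each combination of the 4 Snt libraries that occupied them (y axis), on equal-size lists. The 2642 windows held by both FT libraries alone (red) and the 1084 held by both Sham libraries alone (blue) are few beside the 60293 shared by all 4, and the longest bar below those is the 6518 windows that lacked only Sham 2.

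The Jaccard index told the same on whole lists. On full lists it was 0.787 between the FT libraries and 0.725 between the Sham libraries, but 0.786 between Sham 1 and FT 1 and 0.775 between Sham 1 and FT 2. Each pair with Sham 2 lay at 0.724 or 0.725, whichever the treatment of its partner. The mean of the same-treatment pairs exceeded that of the mixed pairs by 0.0036 (exact permutation test, two-sided, p = 0.667). On equal-size lists the difference was 0.0037 (exact permutation test, two-sided, p = 0.667).

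The best-scoring peaks separated the replicates more than the treatments. Among the 10000 best peaks of each list, 727 windows followed treatment (501 higher in FT, 226 higher in Sham), 1485 followed the replicate number and 644 the crossed split. Among the 5000 best, the counts were 379, 1048 and 311. This log2 ratio went with list length, from -0.84 at 5000 peaks through -0.55 at 10000 and -0.15 at 20000 to 0.00236 at 30000 and 0.16 at 43894. The 5000, 20000 and 30000 peak lists were added after the data had been seen. Higher in FT was the larger direction at each length, between 66.1% and 70.9% of the changed windows.

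**Figure D2:**
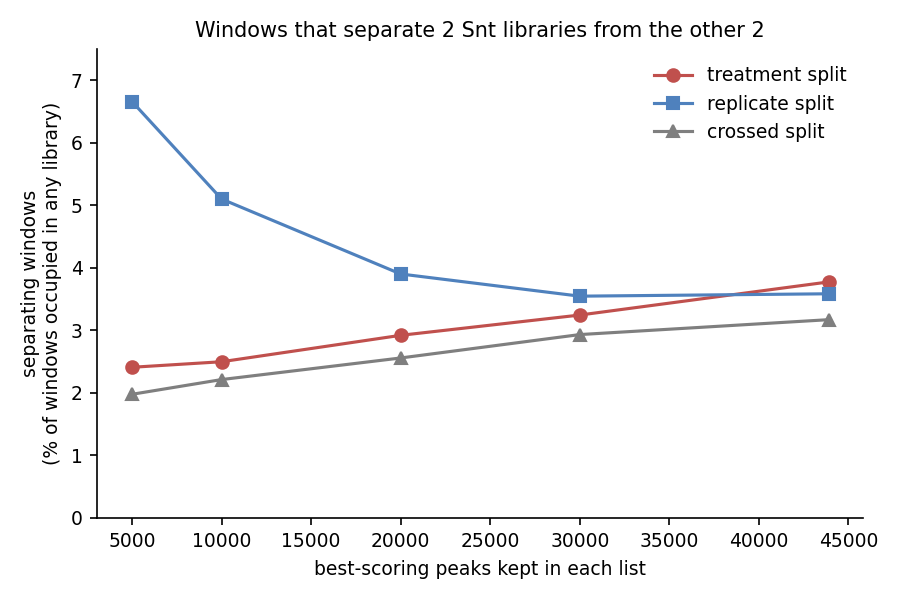
Share of Snt windows that separate 2 libraries from the other 2 (y axis, % of windows occupied in any library) against the number of best-scoring peaks kept per list (x axis), for the treatment (circles), replicate (squares) and crossed (triangles) splits. The replicate split falls from 6.66% at 5000 peaks to 3.59% at 43894, while the treatment split rises from 2.41% to 3.78% and the crossed split from 1.98% to 3.17%.

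Many changed windows lay beside elements that both treatments shared. On full lists 1619 of the 3102 windows higher in FT (52.2%) touched a window occupied in both treatments, and 441 of the 950 higher in Sham (46.4%) did. In 62.2% and 59.5% of them, peaks of the other treatment covered at least 1 base. The windows of the replicate split touched such a window in 47.0% and 62.1% of cases in its 2 directions, with at least 1 base covered in 58.3% and 73.5%. Those of the crossed split touched one in 54.2% and 55.8%, with at least 1 base covered in 64.6% and 66.6%. On equal-size lists the treatment shares that touched were 57.9% and 38.7%. The other splits gave 55.4% and 53.2% (replicate) and 58.3% and 50.6% (crossed) there. The windows that stood apart lay a median of 10 kb (higher in FT) and 11 kb (higher in Sham) from the nearest shared window on full lists. All changed windows together joined into 3017 loci higher in FT and 935 higher in Sham. Of these loci, 97.2% and 98.4% were single windows and none was longer than 2 kb. Single windows made up 97.3% to 98.7% of the loci of the other splits.

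The peaks that carried these windows ranked low within their lists. Each deposited peak has a Norm-tag-count, the peak's tag count normalised by the authors and rounded to a whole number. The median percentile of this value was 30.6 for windows higher in FT and 18.6 for windows higher in Sham, against 67.8 for windows occupied in all 4. Windows that separated the replicate and the crossed split lay at 34.8, 36.5, 36.4 and 25.3, near the windows that followed treatment. In the upper 50% of their lists were 26.3% of windows higher in FT and 25.7% of those higher in Sham, against 70.2% of shared windows. Windows apart from shared elements had a median deposited −log10 p of 5.89 (higher in FT) and 5.40 (higher in Sham), near the calling limit of 4. Those that touched a shared window stood at 16.2 and 12.2.

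**Figure D3:**
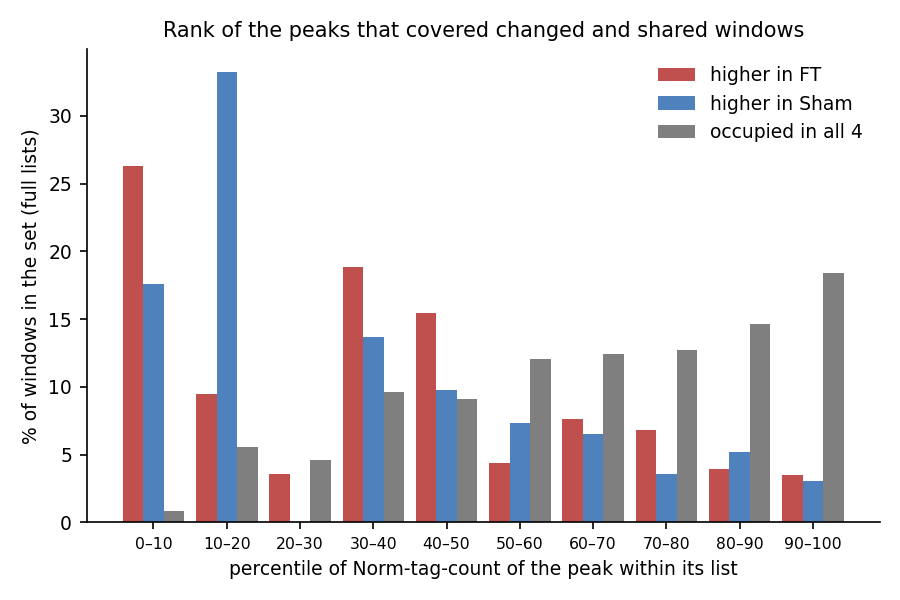
Share of windows (y axis, % of each set, full lists) by the percentile of the Norm-tag-count of the covering peaks within their lists (x axis, steps of 10), for windows higher in FT (red), higher in Sham (blue) and occupied in all 4 libraries (grey). Changed windows gather at low percentiles, with medians of 30.6 and 18.6, and shared windows at high ones, with a median of 67.8. The uneven bars reflect whole-number tag counts, of which a list held only 38 to 52 distinct values.

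No chromosome held the changes. On equal-size lists, windows higher in FT made up 2.29% (chromosome 14) to 3.22% (chromosome 12) of the occupied windows of a chromosome, and windows higher in Sham 0.863% (chromosome 3) to 1.62% (X). Windows higher in FT outnumbered those higher in Sham on all 21 chromosomes, from 63.2% of changed windows on X to 78.9% on chromosome 12. All chromosomes come from the same 4 libraries, and the other splits were not counted by chromosome. Genome-wide, the sides without Sham 2 held 65.1% of the windows of the replicate split and 65.0% of the crossed split. In stretches of 1 Mb the changes were thinly spread. Of 2571 stretches with a peak, 1344 held at least 1 window higher in FT and 775 at least 1 higher in Sham, and the fullest held 9 and 5. One of those with 9, chosen after its count was seen, was chr10:15000001-16000000 (rn5), where 150 windows were occupied in all.

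The 5 longest loci in each direction, with ties in length broken by rank, were all 2 kb, and their positions are given on rn5. The locus at chr8:22519001-22521000 was covered to 20% in Sham 1, 0% in Sham 2, 80% in FT 1 and 75% in FT 2 on full lists. Its highest Norm-tag-count was 10 in Sham 1 against 13 and 12 in FT 1 and FT 2, so a peak was present in 1 Sham library too and covered less of the locus. The locus at chr8:48945001-48947000 had no peak in either Sham library and coverage of 65% and 75% in FT 1 and FT 2, with −log10 p of 6.69 and 13.51. This was the only 1 of the 5 loci higher in FT with no Sham peak at all. The strongest by p was chr5:168504001-168506000, with −log10 p of 87.3 and 72.78 in FT and coverage of 83.45% and 83.85%. Both Sham libraries had a peak there as well, at −log10 p of 7.79 and 50.16 with 10% and 9.6% coverage. The loci chr3:12443001-12445000 and chr8:52597001-52599000 were covered to 70% or more in both FT libraries and to at most 20.2% in a Sham library.

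Loci higher in Sham were weaker. The first, chr8:23076001-23078000, was covered to 65% and 60% in Sham 1 and Sham 2 with −log10 p of 5.05 and 7.76, and had no FT peak. The locus chr16:48397001-48399000 was covered to 91.2% and 83.55% in Sham with −log10 p of 8.43 and 8.1, also with no FT peak. The other 3 carried an FT peak on the full lists. At chr4:197198001-197200000, FT 1 covered 65% and FT 2 covered 0% against 60% and 70% in Sham. At chr2:41632001-41634000 the coverage was 60%, 60%, 45% and 0%, and at chr5:26644001-26646000 it was 75%, 70%, 45% and 45%. All 5 had a highest Norm-tag-count of 4 or 5 in Sham.

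Shared elements were then compared by strength and width. Stretches of joined peaks that held a peak of all 4 libraries numbered 37984 of 58606 (64.8%). For the rank of the Norm-tag-count, as a normal score within each library, limma called 0 elements towards FT and 0 towards Sham at an adjusted p under 0.05 (0% of 37984 in each direction), with 1146 and 2687 at an unadjusted p under 0.05. The replicate split gave 1650 and 1043 at the unadjusted threshold, and the crossed split 412 and 2047, with 0 called. The lowest adjusted p by limma was 0.485. With the replicate number as a block, limma called 79 elements higher in FT and 67 higher in Sham. Of these 146, 82 had equal tag counts in the 2 Sham libraries and in the 2 FT libraries, as 20.5% of all elements did. The maxScore, which has few ties, gave 0 calls without the block and 0 with it. Leaving out 1 library gave 388 calls (without Sham 1), 254 (without Sham 2), 77 (without FT 1) and 36 (without FT 2). The remaining pair of the other treatment had equal tag counts in 154, 198, 44 and 18 of them.

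The elements with the lowest p show this coarseness. The 5 highest ranked towards FT all had a Norm-tag-count of 3 in both Sham libraries and 5 in both FT libraries, a pattern found in 10 elements, and the difference in rank score was 0.87 (limma, adjusted p = 0.485). They lay at chr11:90638067-90639867, chr13:55531632-55533593, chr15:80907902-80908801, chr18:57335262-57337606 and chr2:72912039-72913101. The first was also wider in FT, at 1800 bp in both FT libraries against 1000 and 1100 bp in Sham. At the fifth the width was 900, 800, 800 and 900 bp in Sham 1, Sham 2, FT 1 and FT 2. Towards Sham, chr7:142468102-142470534 had a tag count of 5 in both Sham libraries and 3 in both FT libraries, a rank score difference of -1.82 (limma, adjusted p = 0.485), and was 2200 and 2300 bp wide in Sham against 1600 and 1400 bp in FT. The elements chr11:67202467-67203687 and chr14:34612315-34613614 had 3 tags in Sham and 2 in FT, and chr17:82356402-82358301 and chr3:115203305-115204412 had 4 in Sham and 3 in FT. None of these 10 passed the threshold without the replicate block. With the block the adjusted p by limma was 0.0493 for the 5 towards FT, and towards Sham it was 0.000214 for the element on chromosome 7, 6.54e-05 for the elements with 3 and 2 tags and 0.0120 for those with 4 and 3.

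Width was compared over the same elements. The median log2 difference was 0.06 and 73.6% of elements were wider in FT, against 63.4% wider in replicate 1 than in replicate 2 and 70.8% wider in Sham 1 with FT 2 than in the other crossed pair, and limma called 0 elements in each direction (0% of 37984). At an unadjusted p under 0.05, 2540 were wider in FT and 449 in Sham. The replicate split gave 1336 and 519 and the crossed split 1417 and 441 at that threshold. After the widths of each library were centred on their median, the median difference was -0.02 with 40.8% wider in FT, and 984 elements against 776 passed the unadjusted threshold. Without Sham 1, limma called 4427 elements wider in FT and 488 narrower, so that this count depends on 1 library. Leaving out any other library gave 0 calls, and without Sham 2 the share wider in FT was 50.1%.

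Nearly all changed windows were active elsewhere in the brain. Of the 4052 changed windows on full lists, 3904 (96.3%, 95% exact binomial interval 95.7 to 96.9, which covers counting error only) were occupied in at least 1 library of the 24 other regions. The share was 96.5% for windows higher in FT and 96.0% for those higher in Sham, against 97.5% of all Snt windows, 96.7% of windows of the replicate split and 96.6% of the crossed split. It was 95.8% on equal-size lists, and 93.7% on full lists with Raphe left out. When 2 libraries of a region were required, it was 82.8% on full lists. The windows occupied in no other region numbered 110 of those higher in FT and 38 of those higher in Sham.

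Windows that separated 2 libraries from the other 2, by treatment or by another split, were active in fewer regions than shared ones. The median number of other regions was 8 for windows higher in FT and 10 for those higher in Sham, against 19 for all Snt windows and 24 for windows in all 4 Snt libraries. It was 10 for windows of the replicate split and 8 for those of the crossed split, so these low numbers did not set the treatment split apart. Without Raphe the medians were 7, 9, 18 and 23 of 23 regions. In all 24 regions were 2.29% and 3.16% of the changed windows, against 4.54% and 2.73% for the replicate and crossed splits and 32.8% of all Snt windows. The share of windows that were higher in FT was 4.28% among windows active in no other region and 7.35% among those in 1 to 5. It was 5.55% among those in 6 to 12, but 2.54% in 13 to 23 and 0.209% in all 24. For windows higher in Sham the same shares were 1.48%, 1.79%, 1.58%, 0.992% and 0.0882%. By region, 73.7% of windows higher in FT and 73.6% of those higher in Sham were active in Raphe, against 76.3% and 72.6% for the replicate and crossed splits and 87.0% of all Snt windows. In LC the shares were 37.0% and 48.3%, against 47.5%, 42.3% and 71.5%.

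**Figure D4:**
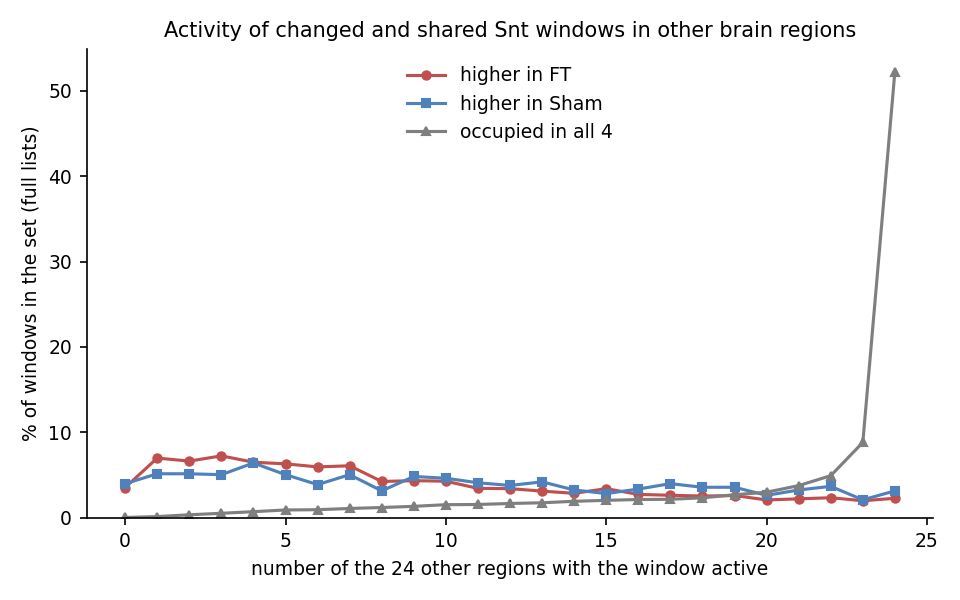
Share of windows (y axis, % of each set, full lists) by the number of the 24 other regions in which they were active (x axis), for windows higher in FT (circles), higher in Sham (squares) and occupied in all 4 Snt libraries (triangles). Changed windows spread over the whole range with medians of 8 and 10 regions, whereas 52.2% of the shared windows were active in all 24.

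Whether these windows moved the same way elsewhere was examined in the 20 other regions with 4 lists, each cut to 19378 peaks. Regions share the pooled animals, so these are descriptions. Snt windows were taken from equal-size lists unless stated. The difference between FT and Sham mean occupancy had a median over regions of 3.58 percentage points for windows higher in FT in Snt, 1.36 for windows higher in Sham and 2.70 for all Snt windows. The first exceeded the second in 19 of 20 regions, by a median of 2.17 points, with Raphe as the exception at -1.27. Without Raphe the medians over 19 regions were 3.61, 1.34 and 2.74 points, and the gap was 2.21. The same contrast between the sides of the crossed split, without Sham 2 minus with Sham 2, was above 0 in 17 of 20 regions with a median of 1.48, and for the replicate split in 13 of 20 with a median of 0.667. With Snt windows from full lists, the crossed split had the widest gap. The medians were 1.38 for treatment (above 0 in 19 of 20 regions), 1.53 crossed (18 of 20) and -0.38 by replicate (8 of 20). The gap was widest in MS, at 4.42 points, where 362 of the 2642 windows higher in FT in Snt (13.7%) were also higher in FT and 0 were the reverse. Of the 1084 windows higher in Sham in Snt, 142 (13.1%) were higher in FT in MS and 7 higher in Sham. Over all Snt windows the FT minus Sham difference in mean occupancy there was 8.78 points. The share of all Snt windows that were higher in FT in MS is not given here, so the counts in MS lack that background. In LC the differences were -0.62 points for windows higher in FT in Snt and -1.89 for those higher in Sham, against 3.48 over all Snt windows.

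**Figure D5:**
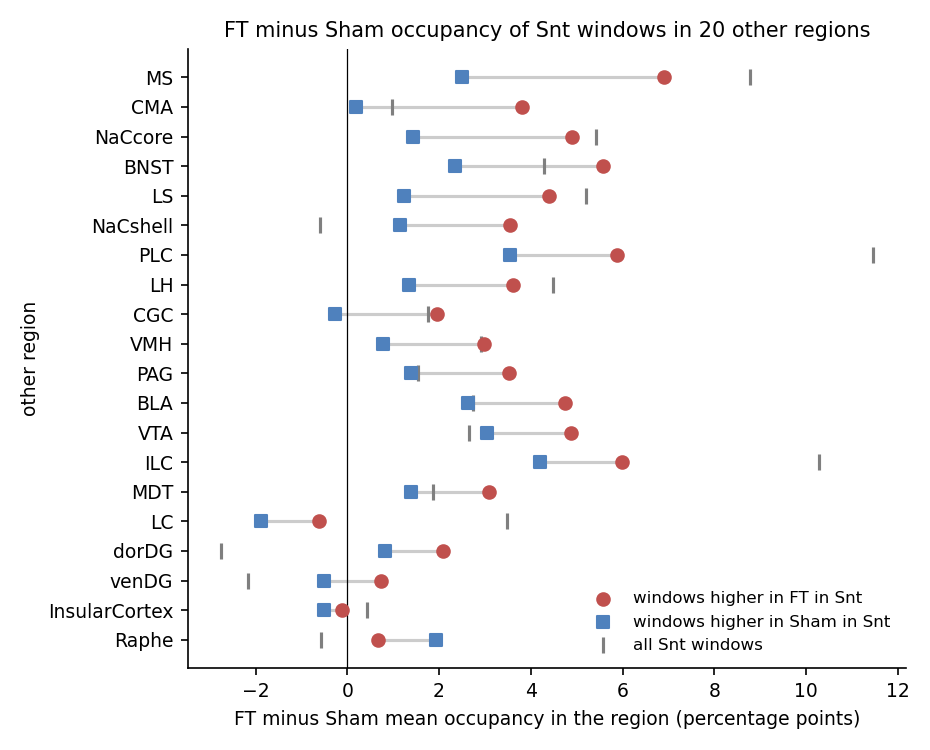
FT minus Sham mean occupancy (x axis, percentage points) in each of the 20 other regions (y axis) for windows higher in FT in Snt (circles), higher in Sham in Snt (squares) and all Snt windows (ticks). Circles lie to the right of squares in 19 regions, and the order is turned in Raphe alone.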

How the data were processed

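H3K27ac ChIP-seq peak lists of 4 Snt libraries (Sham and FT, replicates 1 and 2) and of 90 libraries of 24 other regions were used. The authors aligned reads to rn5 (BWA is named in the submitters' processing notes, without a version) and ran DFilter once per library, without pooling replicates, to obtain peaks. The 8 deposited columns include the −log10 p-value (4 to 200), the maxScore and the Norm-tag-count as scores, and a false discovery rate in percent that was 0 for every peak. Reads per peak, and hence depth, are not part of the lists. The study tested reads counted per peak with DESeq2, which peak lists do not allow. The 4 input libraries entered no comparison.

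Windows of 1 kb were scored with Python 3.11.15, and element ranks and widths were tested with limma 3.58.1 in R 4.3.3 with Benjamini-Hochberg adjustment at 0.05. Deposited starts were taken to be 0-based, and printed coordinates are 1-based. Equal-size lists held the 43894 best peaks by maxScore. Cutting by −log10 p instead gave equal counts of changed windows. The exact permutation test used the 3 ways to split 4 libraries 2 against 2. The loci named were the 5 longest in each direction on equal-size lists, ties broken by mean Norm-tag-count percentile and then position, with the 5 elements of lowest p in each direction by rank, where ties were ordered by chromosome. The members, lists and rules were chosen with earlier results of these data known. By the study's methods, matching Sham and FT samples of a replicate were handled side by side, so the replicate number pairs them. The deviations of same-numbered libraries correlated over windows at r = 0.026 on full lists (103566 windows, a description). Among the 5000 best peaks of each list, however, the replicate split held the most windows (1048, against 379 by treatment and 311 crossed). Both programs were tested on simulated data, but the simulated element values had no ties, unlike the tag counts, so the effect of ties was not tested. Alternatives were other window sizes, coverage rules, list cuts, scores, a replicate block and leaving out each library. No rn5 annotation was used here, and hence no gene names, markers or sequences are given.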

Additional observations from a re-analysis of the deposited data

Results flagged for a closer look

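Some windows changed in opposite directions in Snt and in another hindbrain region. Change in Snt was called on equal-size lists of 43894 peaks, and change in Raphe and LC on lists cut to 19378 peaks. Between Snt and Raphe there were 169 such windows, of which 126 were higher in FT in Snt and higher in Sham in Raphe and 43 the reverse, against 171 that changed in the same direction. Between Snt and LC there were 25, of which 14 were higher in FT in Snt and 11 higher in Sham in Snt, against 63 in the same direction. These windows were picked because every library of one region moved one way and every library of the other the opposite way, and the difference between regions was not tested. The share of all Snt windows that changed either way in Raphe or LC is not given here, so these counts have no background beside them. The library labelled Sham Raphe replicate 1 was the most similar library outside Snt for all 4 Snt libraries, and its part in the Raphe counts was not tested.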

How the results depend on the processing

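For the treatment split against the others, the log2 ratio was 0.15 on full and 0.16 on equal-size lists. It turned below 0 with peak centres (-0.015 and -0.048). On equal-size lists it also did so with the 5000 (-0.84), 10000 (-0.55) and 20000 (-0.15) best peaks. With windows of 5 kb it rose to 0.63 on full and 0.60 on equal-size lists. On the latter, a library occupied only 2885 to 3967 windows of 5 kb. Of these, 275 followed treatment (247 higher in FT, 28 higher in Sham), against 184 by replicate and 180 crossed. The causes were not tested. Leaving out 1 library gave -0.29 to 0.58 on full and -0.35 to 0.63 on equal-size lists, below 0 without FT 1 or FT 2. The Jaccard difference then ranged from -0.031 to 0.063 on full and from -0.031 to 0.060 on equal-size lists, again below 0 without FT 1 or FT 2. The ratio of peak number ranged from 0.00013 to 0.16, of covered length from 0.018 to 0.22 and of median width from 0 to 0.082 on both kinds of list. The share of changed windows active elsewhere was 92.3% to 95.4% on full and 92.4% to 95.0% on equal-size lists with 1 library left out. It was 82.8% and 82.0% when 2 libraries of a region were required, and 93.7% and 93.3% with Raphe left out. The share that touched a shared window was 44.3% to 48.4% and 46.3% to 49.6% with 1 library left out, against 50.8% and 52.3%.

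For element rank, the replicate block gave 146 calls against 0, and leaving out 1 library 36 to 388. For element width the block gave 0 calls, and leaving out 1 library 0 to 4915. With the block, each of the 10 named elements had an adjusted p under 0.05 (limma), from 6.54e-05 to 0.0493, against 0.485 without it. Beyond element rank and these elements, only element width could have crossed its threshold with the block, and it did not. The permutation tests could not pass 0.05 with or without the block, and the shares by position and region were not fitted with it. The maxScore fit with the block was added after the data had been seen. Among the 10 named elements, the first towards FT turned to -0.51 and the fifth towards Sham to 0.35 with tag count per width. The fifth towards FT turned to -0.087 with maxScore, with or without the block. With 1 library left out, the lone library is assumed to vary like the others. With 2 pools per treatment no permutation p could fall below 0.333, so these tests could not pass 0.05 whatever the difference, and unknown depth limits every count of windows.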
